A study of Homo sapiens with 4 samples.

Results

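The ATP-binding cassette (ABC) family was examined in darolutamide-resistant LNCaP prostate cancer cells, called DaroR cells. A gene was taken as a member if its name in the count table was ABC, a subfamily letter from A to G and a number, with names of pseudogenes left out, which gave 46 of 60606 genes. TAP1, TAP2 and CFTR are ABC proteins by structure, but do not carry such a name, and are described with the partner genes. Both groups were LNCaP-DaroR cells, a single line derived from LNCaP cells by culture in rising concentrations of the antiandrogen darolutamide, in which it was then kept. One group, siControl, received control siRNA, and the other, siLOC730101, received a pool of siRNAs against the long non-coding RNA LOC730101, with 2 libraries of poly(A) RNA in each. The study asked what the loss of this lncRNA does to gene expression in resistant cells. The labels do not say that these libraries came from separate cultures, and a general statement on independent experiments in the methods does not name them, so p-values measure the spread between these libraries, which may be technical.

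ABC proteins bind ATP in a pair of nucleotide-binding domains. Most of them use it to move a substrate across a membrane, such as drugs and conjugates, cholesterol and phospholipids, fatty acids, peptides or haem precursors. The ABCE and ABCF members have no membrane domain and work on ribosomes. In prostate cancer the family is known for drug efflux, for the export of conjugated steroids and for cholesterol handling.

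The libraries held 39213498 to 53368158 counts. LOC730101, listed as ENSG00000216775, had 2560 and 2370 counts in siControl and 633 and 680 in siLOC730101, which is -1.56 as a log2 fold change (SE 0.116, adjusted p = 4.34e-06, edgeR), so the labels and the targeted gene went the same way. Prostate luminal markers summed to 9726 to 10719 CPM in siControl and 10375 to 10509 in siLOC730101, where CPM is the count relative to the library size after TMM scaling. Basal and stromal markers summed to 14.4 to 18.2 and 15.0 to 16.8 CPM, and leukocyte and endothelial markers to 6.79 to 9.72 and 5.87 to 7.06 CPM. Most of these last sums came from COL1A1 (451 to 797 counts in a library), VIM (109 to 155) and VWF (238 to 442), whereas KRT5, TP63, COL1A2, LUM, PTPRC, CD3E and CDH5 had 0 counts in all 4 libraries.

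The study links LOC730101 to the microRNA miR-1-3p, which pairs with messenger RNAs through its seed, bases 2 to 8. Sites for it were therefore searched in the members. Those of 6 of the 8 members with a site that were tested for expression follow here, so that their letters can be set beside a fold change. The microRNA is printed from RefSeq (GRCh38.p14) with the seed in capitals, and the sites are windows of 28 bases of annotated 3′ UTRs on GRCh37 with the bases of the match in capitals.
miR-1-3p: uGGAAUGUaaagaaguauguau
ABCC1, chr16:16236534-16236561, plus strand: ggctgagaagtaACATTCCcaggaaata
ABCC4, chr13:95673005-95673032, minus strand: aacctctaaccgACATTCCtgaaatacg
ABCC5, chr3:183638316-183638343, minus strand: gggatcacagagACATTCCtccgagccg
ABCA12, chr2:215796488-215796515, minus strand: tcttttcaggaaACATTCCtgtggaggg
ABCA1, chr9:107543510-107543537, minus strand: atcattggccctCATTCCAagcacttta
ABCE1, chr4:146049398-146049425, plus strand: tttttgtttttgCATTCCAtgaggttct

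The sites of ABCC1, ABCC4, ABCC5 and ABCA12 hold ACATTCC, the match to the full seed, and those of ABCA1 and ABCE1 hold CATTCCA, the match to bases 2 to 7 followed by A. ABCA13 holds ACATTCCA, where both overlap, and ABCC9 holds ACATTCC, but neither passed the filter on low counts. On the annotated strand, 10 of the 45 members with an annotated 3′ UTR (22.22%) hold at least 1 of these matches, against 20.18% of 18914 protein-coding genes. A match of letters is a description and does not show binding.

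Of the 46 members, 31 (67.39%) passed the expression filter of edgeR and were tested, as were 70.38% of 19060 protein-coding genes. The other 15 had at most 26 counts in a library. To compare members with each other, levels are given as CPM per kilobase of exon. The length covers all annotated exons of a gene, such as 27254 bases for ABCC8, and can exceed that of the transcript expressed. Members with many annotated exons can therefore read too low, and ranks and shares depend on this length. The family summed to 249.3 and 236.5 CPM per kilobase in the siControl libraries and to 244.7 and 246.1 in the siLOC730101 libraries. It rested on few members, because the 3 highest gave 36.0% to 38.7% of this sum in a library and the 8 highest gave 70.8% to 73.0%. A mean of over 10 CPM per kilobase was reached by 9 members, while 26 members lay under 1.

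**Figure D1:**
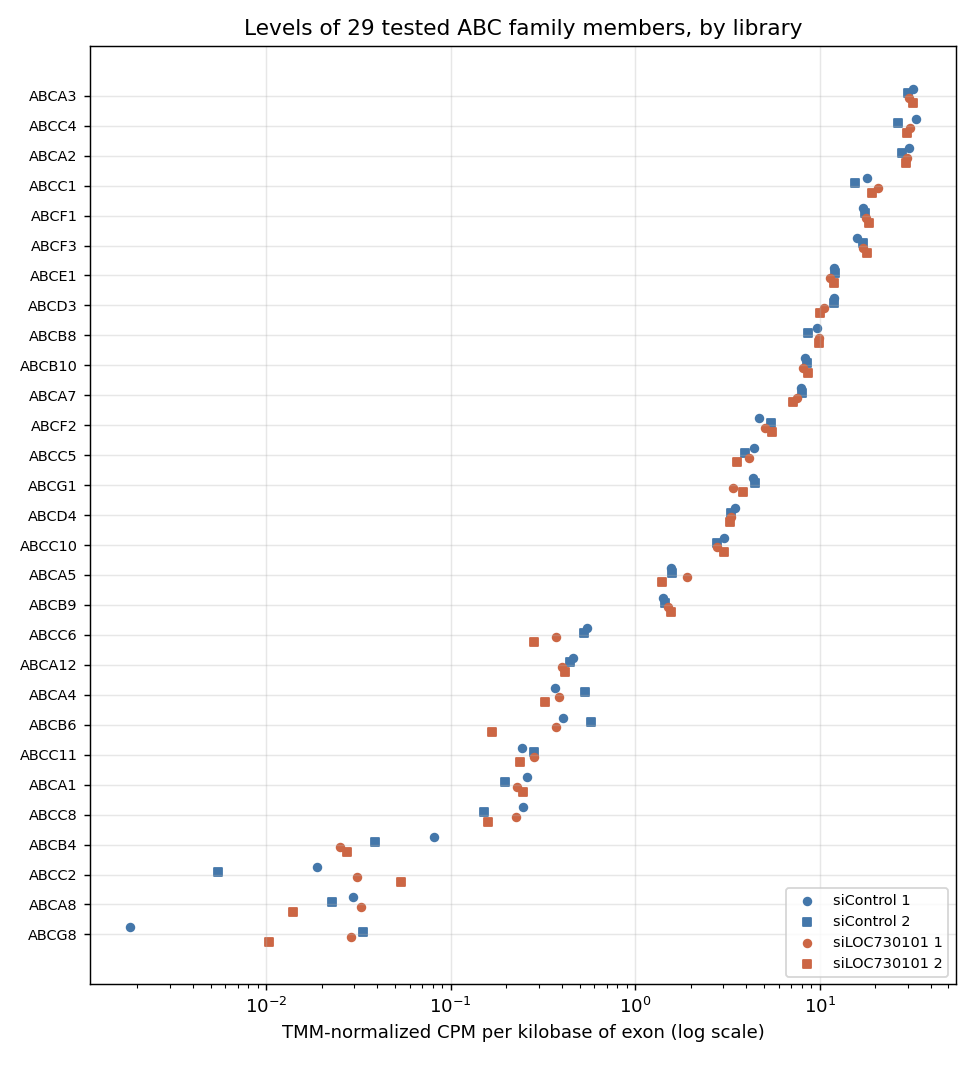
Level of 29 of the 31 ABC members tested, as TMM-normalized CPM per kilobase of exon on a log axis, with 1 point for each library. The higher members have means from 1.49 to 31.4, the others have means under 0.5, and the colours of siControl and siLOC730101 are mixed in most rows.

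The lysosomal and lamellar body transporters were the most abundant class, with 27.4% to 27.9% of the family sum in each library. ABCA3, which loads phospholipid into lamellar bodies in the lung and lies on chromosome 16 of GRCh38 from 2275881 to 2340746, had the highest mean, with 32.3 and 30.4 CPM per kilobase in siControl and 30.5 and 32.3 in siLOC730101. ABCA2, an endolysosomal lipid transporter on chromosome 9 from 137007234 to 137028915, had 30.7 and 27.97 in siControl and 29.8 and 29.4 in siLOC730101. The groups overlapped in both genes, and the log2 fold changes were 0.00 for ABCA3 (95% interval -0.16 to 0.16) and 0.01 for ABCA2 (-0.15 to 0.17). ABCD4, which serves vitamin B12 export from lysosomes, had a mean of 3.35 CPM per kilobase over the 4 libraries. The endolysosomal ABCA5 had 1.62 and the lysosomal peptide transporter ABCB9 had 1.49. Their log2 fold changes were -0.04, 0.08 and 0.10, each with an interval that included 0.

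Drug and organic anion exporters gave 21.1% to 24.2% of the family sum, nearly all of it from ABCC genes. ABCC4, an exporter of cyclic nucleotides, prostaglandins and conjugated steroids, lies on chromosome 13 from 95019835 to 95301475. It had 33.4 and 26.8 CPM per kilobase in siControl and 30.8 and 29.7 in siLOC730101. The siLOC730101 libraries lay between the siControl libraries, which differed by 0.32 on the log2 scale, the widest gap between siControl libraries among the 20 members with a mean of at least 1 CPM per kilobase. The log2 fold change of ABCC4 was 0.01 (95% interval -0.19 to 0.20). The levels of ABCA3, ABCC4 and ABCA2 overlapped across the libraries, so the order of these 3 members is not set by these data.

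Of the transporters known for multidrug resistance, ABCC1 was well expressed, with a mean of 18.4 CPM per kilobase, while ABCB1 and ABCG2 had few counts. ABCB1, which encodes P-glycoprotein, had 0 and 6 counts in siControl and 0 and 0 in siLOC730101. ABCG2, the breast cancer resistance protein, had 0 and 0 counts in siControl and 8 and 1 in siLOC730101. A count of 0 allows up to 3 counts, which is 0.0555 to 0.0790 CPM in these libraries, so levels below that were not detectable at this depth. This limit covers counting error only, and would be higher if mates were counted apart. ABCC3, a basolateral exporter of conjugates, had 0 and 26 counts in siControl and 1 and 1 in siLOC730101. ABCC2, the canalicular exporter of conjugates, had 8 and 2 counts in siControl and 10 and 16 in siLOC730101. ABCC2 was tested, with a log2 fold change of 1.75 (SE 1.16, adjusted p = 0.636, edgeR), which rests on 36 counts in all. ABCC12 had 2 counts in all, and ABCB5 had 4. ABCC11, active in apocrine glands, had a mean of 0.262 CPM per kilobase and a log2 fold change of -0.02.

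The ABCE and ABCF members gave 19.9% to 22.2% of the family sum. ABCF1, which acts in translation initiation, had 17.2 and 17.6 CPM per kilobase in siControl and 17.8 and 18.5 in siLOC730101. ABCF3 had 15.9 and 17.3 in siControl and 17.2 and 18.1 in siLOC730101. ABCE1, which splits ribosomes for recycling, had 11.96 and 12.1 in siControl and 11.4 and 11.97 in siLOC730101. In ABCF1 both siLOC730101 libraries lay above both siControl libraries, while the groups overlapped in ABCF3 and ABCE1. The log2 fold changes of ABCF1, ABCF2 and ABCF3 were 0.06, 0.07 and 0.09, and that of ABCE1 was -0.04, each with an interval that included 0.

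Peroxisomal members came next, with 11.8% to 13.4% of the family sum. ABCD3, described with the comparison, had a mean of 11.1 CPM per kilobase. ABCD2, a fatty acid importer, had 6 and 4 counts in siControl and 2 and 0 in siLOC730101. The mitochondrial members gave 9.69% to 10.5%. ABCB8 had a mean of 9.53 CPM per kilobase, and ABCB10, of the inner membrane, had 8.42. Sterol and lipid exporters were a small share, with 4.77% to 5.60%. ABCA7, a phospholipid transporter, had the highest mean among them with 7.68 CPM per kilobase. ABCG1, a cholesterol exporter, had 4.01. ABCA1, which passes cholesterol to apolipoprotein A-I, had a mean of only 0.233, and the partner subunits of the plant sterol exporter, ABCG5 and ABCG8, had 10 and 33 counts over the 4 libraries.

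**Figure D2:**
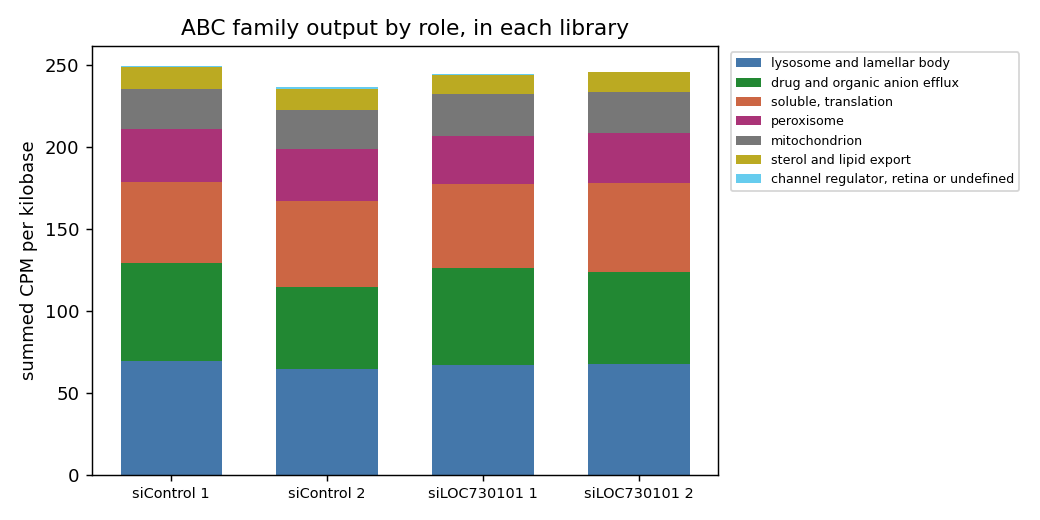
Summed level of the 46 ABC members in each library, in CPM per kilobase, stacked by the role of the members. The sums lie between 236.5 and 249.3, and the lysosomal, exporter and ribosomal members together fill most of each bar in both groups.

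The comparison of siLOC730101 with siControl addressed whether loss of LOC730101 shifted members of the family. None of the 31 members tested was called higher or lower by edgeR at an adjusted p of 0.05. Across all 19349 genes tested, 0.284% were called, of which 0.212% of the genes tested were higher and 0.0724% were lower. DESeq2 called 0 of the 20 members to which it gave an adjusted p, against 3.12% of 9525 genes. At an unadjusted p under 0.05, 4 of the 31 members stood in edgeR, 1 with a higher and 3 with a lower value, against 10.8% of all genes, with 6.43% higher and 4.39% lower. In DESeq2 this unadjusted level was reached by 2 of 43 members, against 5.82% of 31960 genes. The median log2 fold change was -0.0092 over the members and -0.0021 over all genes tested. It was above 0 for 14 members and below 0 for 17, where 49.6% of all genes lay above 0. Both siLOC730101 libraries lay above both siControl libraries in 6 of the 31 members (among them ABCB8, ABCB9, ABCC1, ABCC2 and ABCF1) and below them in 7 (ABCA7, ABCA12, ABCB4, ABCB6, ABCC6, ABCD3 and ABCG1), against 21.3% and 20.5% of all genes tested. These 2 counts lay near the share of all genes, and no reading is made of the 3 lower members.

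**Figure D3:**
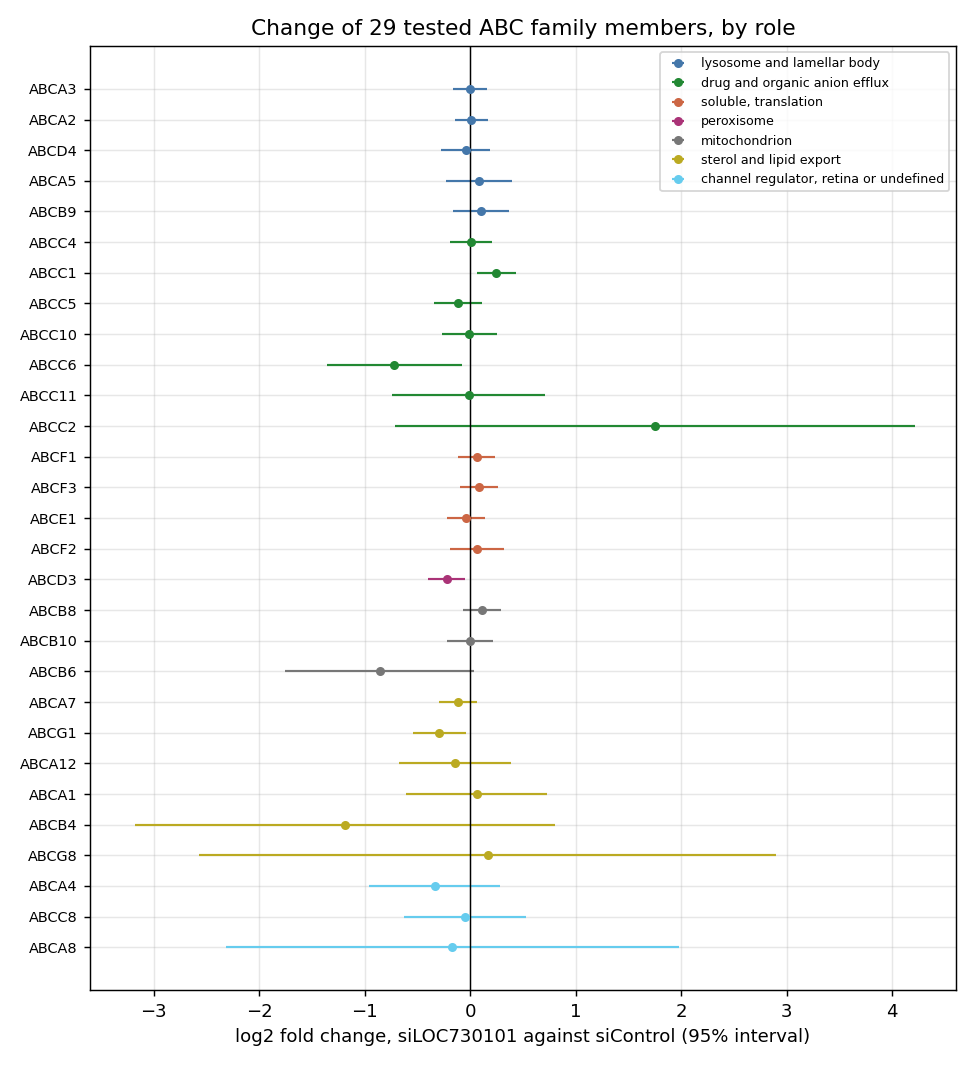
Log2 fold change of siLOC730101 against siControl for 29 of the 31 ABC members tested, with 95% intervals derived from the edgeR test, grouped by role. The intervals of ABCC1, ABCC6, ABCD3 and ABCG1 leave out 0 without adjustment, and members with few counts, such as ABCC2, ABCB4 and ABCG8, have the widest intervals.

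By subfamily, the median log2 fold change was -0.06 over 8 tested ABCA members, 0.05 over 6 ABCB, -0.01 over 8 ABCC, -0.04 over 3 ABCD, 0.07 over 3 ABCF and -0.06 over 2 ABCG members. All 3 ABCF members lay above 0, with intervals that included 0. Over the 20 members with a mean of at least 1 CPM per kilobase, the median distance between replicates was 0.064 on the log2 scale in siControl and 0.078 in siLOC730101, and 16 of the 20 fold changes were under 0.15 in size.

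The intervals, which are not adjusted for the number of genes, give the range of change that these libraries allow for a member. For the 20 members with a mean of at least 1 CPM per kilobase, the estimates ran from -0.29 to 0.25, with standard errors from 0.0744 to 0.147. Their 95% intervals all lay within -0.55 and 0.45 on the log2 scale. For members below this level the intervals were wider, as for ABCA1 with -0.61 to 0.73, or ABCB4, the phosphatidylcholine exporter of bile, with -3.18 to 0.80.

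ABCC1 exports glutathione conjugates and glutathione itself. It lies on chromosome 16 from 15949138 to 16143257 on the plus strand. Its CPM was 158.2 and 136.1 in siControl and 181.0 and 168.3 in siLOC730101. Both siLOC730101 libraries lay above both siControl libraries, but the nearest libraries of the groups were closer than the siControl libraries were to each other. The log2 fold change was 0.25 (SE 0.0862, 95% interval 0.06 to 0.43), and the adjusted p was 0.271 in edgeR. Without siLOC730101 replicate 2 the log2 fold change was 0.30 with an adjusted p of 0.0399, where the lone siLOC730101 library was assumed to vary like the others, and over the 4 fits without 1 library the log2 fold change lay between 0.15 and 0.36.

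ABCC6, which is needed for cellular ATP release, lies 6.3 kb beyond the end of ABCC1 and is read from the other strand, from 16149565 to 16223522. Its CPM was 3.81 and 3.65 in siControl and 2.58 and 1.95 in siLOC730101, so that both siLOC730101 libraries were the lower ones. The log2 fold change was -0.72 (SE 0.299, 95% interval -1.36 to -0.08, adjusted p = 0.383, edgeR). ABCC6 shares near-identical stretches with the pseudogenes ABCC6P1 and ABCC6P2, which makes its counts uncertain. ABCC6P1 had 56 and 32 counts in siControl and 54 and 18 in siLOC730101, and ABCC6P2 had 34 and 12 in siControl and 22 and 18 in siLOC730101. Their log2 fold changes were 0.06 and 0.18, with groups that overlapped.

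ABCD3, a peroxisomal importer of branched fatty acids and bile acid precursors, lies on chromosome 1 from 94418389 to 94518666. Its CPM was 92.1 and 91.6 in siControl and 80.5 and 77.1 in siLOC730101. The libraries of a group were close together and the groups did not overlap. The log2 fold change was -0.22 (SE 0.0822, 95% interval -0.40 to -0.05), and the adjusted p was 0.304 in edgeR. Without any 1 library it stayed between -0.24 and -0.19.

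ABCG1 lies on chromosome 21 from 42199689 to 42297244. Its CPM was 26.8 and 27.2 in siControl and 20.8 and 23.4 in siLOC730101. Again both siLOC730101 libraries were the lower ones. The log2 fold change was -0.29 (SE 0.120, 95% interval -0.55 to -0.04, adjusted p = 0.373, edgeR). Dropping 1 library at a time moved it from -0.38 to -0.20.

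**Figure D4:**
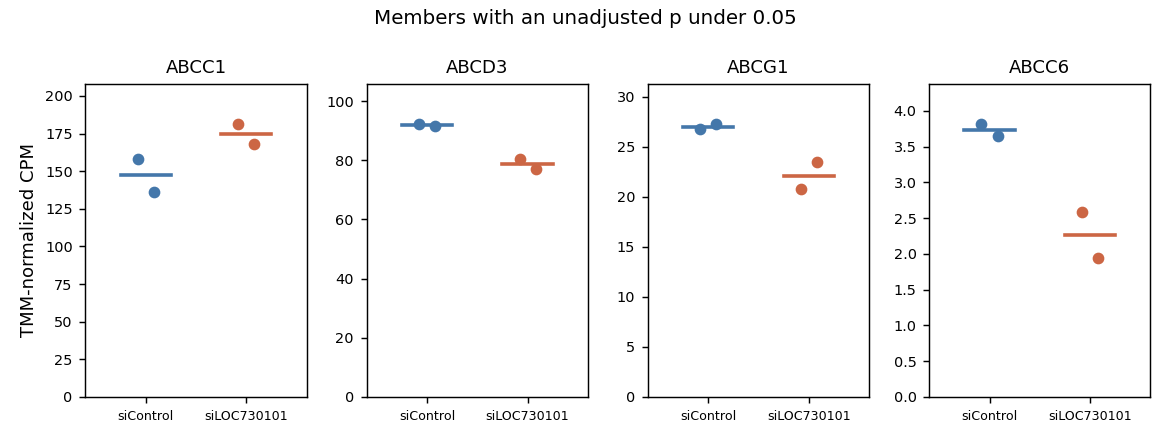
TMM-normalized CPM of the 4 ABC members with an unadjusted p under 0.05, with a point for each library and a bar at the mean of the group of 2, on axes that start at 0. The groups do not overlap in any panel, and the smallest adjusted p of the 4 members is 0.271 in edgeR.

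None of the 4 mitochondrial members was called. ABCB8 had a CPM of 90.2 and 80.9 in siControl and 92.4 and 92.5 in siLOC730101, with a log2 fold change of 0.11. Both siLOC730101 libraries were the higher ones, while the groups overlapped in ABCB10, with a log2 fold change of 0.00. ABCB6, a porphyrin transporter on chromosome 2 from 219209772 to 219218994, had 114 and 141 counts in siControl and 80 and 33 in siLOC730101. The groups did not overlap and the estimate was -0.86 (SE 0.421, adjusted p = 0.492, edgeR) on the log2 scale, but the siLOC730101 libraries differed from each other by 1.16 on the log2 scale. Without siLOC730101 replicate 1 the estimate was -1.55 (adjusted p = 0.0478, edgeR), which rests on 1 siLOC730101 library with 33 counts that was assumed to vary like the others, and over the 4 fits without 1 library it lay between -1.55 and -0.40.

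The remaining lipid exporters gave no call. ABCA7 had a CPM of 76.3 and 76.8 in siControl and 72.5 and 69.0 in siLOC730101, with a log2 fold change of -0.11 (95% interval -0.30 to 0.07). Both siLOC730101 libraries lay just below both siControl libraries, also in ABCA12, the lipid carrier of the skin barrier, with a log2 fold change of -0.14. Of the 6 sterol and lipid exporters tested, 4 had their siLOC730101 libraries below both siControl libraries, where 20.5% of all genes did so. These were ABCG1, ABCA7, ABCA12 and ABCB4, and in the rest the groups overlapped. Each other role class had 0 or 1 such member. The classes were chosen with earlier results of these data known, so no reading is made of this count. ABCB4 rests on 34 and 14 counts in siControl and 8 and 8 in siLOC730101. Among the exporters, ABCC5, which exports cyclic nucleotides, and ABCC10 had log2 fold changes of -0.12 and -0.01, with groups that overlapped.

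Other members had few or no counts in either group. ABCA6, ABCC9, a sulphonylurea receptor of potassium channels, and ABCC13, which is not functional in humans, had 0 counts in all 4 libraries. ABCA9 and ABCB11, the bile salt export pump, had 1 and 4 counts in all. ABCA13 had 2 and 0 counts in siControl and 6 and 4 in siLOC730101, and ABCA10 had 4 and 4 in siControl and 18 and 8 in siLOC730101. ABCG4, a relative of ABCG1, had 0 and 18 counts in siControl and 8 and 7 in siLOC730101. ABCC8, the other sulphonylurea receptor, was measurable at 364 and 194 counts in siControl and 254 and 165 in siLOC730101, with a log2 fold change of -0.05. ABCA4, the retinal transporter, had a log2 fold change of -0.34, and ABCA8 had -0.17 on 51 counts in all.

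Of the 8 tested members with a match to miR-1-3p, 3 had a log2 fold change below 0, and their median was 0.034, with values from -0.14 to 0.25. Of the 23 tested members without a match, 14 were below 0, and their median was -0.016. ABCC1, whose 3′ UTR holds the full seed match, had the highest value of the 8, and ABCA12 and ABCC5 had the lowest. ABCC4, with the highest expression of the 8, had 0.01. None of the 8 passed the threshold, and no test was made of the difference.

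Overlapping genes limited what was counted on some members. Exons of 13 of the 31 tested members share bases with another gene of the table, on the other strand in 9 of them, and the counting command has no strand option. The shared part is over 10% of the exon length in 3 members and at most 7.0% in the others. ABCB6 shares 54.6% of its exon bases with ENSG00000284820 on the same strand, which had 3 to 6 counts in a library. ABCF2 shares 37.1% with ABCF2-H2BK1, which had 0 counts, and ABCB9 shares 24.6% with genes on the other strand, among them OGFOD2 and ARL6IP4. If reads on shared bases went uncounted, the mean of ABCB6 would be 0.839 CPM per kilobase of unshared exon and not 0.381, that of ABCF2 8.27 and not 5.20, and that of ABCB9 1.98 and not 1.49. All 4 libraries were counted in the same way.

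Partner genes of the family were followed in 12 lists of 140 genes, of which 117 were tested and 0 were called in edgeR. At an unadjusted p under 0.05 there were 12 higher and 2 lower, 12% of those tested, against 10.8% of all genes. Of all genes tested, 6.43% were higher and 4.39% were lower at this level. DESeq2 called 3 of the 91 list genes with an adjusted p, ESRRA, GLRX5 and MVP, all higher, where 2.46% of all genes were called higher. Leaving out a library, which leaves 1 library in its group, raised both the number of list genes called and the number of all genes called. Both numbers rose most without siLOC730101 replicate 1.

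Among the other ABC proteins, TAP1, a subunit of the peptide transporter of the endoplasmic reticulum, had a CPM of 18.5 and 20.7 in siControl and 19.96 and 23.9 in siLOC730101. TAP2, its partner, had 61 and 16 counts in siControl and 51 and 41 in siLOC730101, and CFTR, a chloride channel, had 2 to 20 counts in a library. The groups overlapped in these 3 genes, none of which had an unadjusted p under 0.05. In the peptide loading list, B2M, the light chain of class I molecules, was the 1 of 11 genes tested with such a p, at 0.23 on the log2 scale (adjusted p = 0.252, edgeR). Counts of 2 heavy chain genes of this list, looked at after their values were seen, were split between the siControl libraries, with 1 and 502 for HLA-B and 1040 and 2 for HLA-C, against 642 and 529, and 338 and 734, in siLOC730101.

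Of 11 nuclear receptors tested that control ABC genes, ESRRA and NR1H2 had an unadjusted p under 0.05. ESRRA, an orphan receptor for energy metabolism, had a CPM of 75.2 and 77.7 in siControl and 91.6 and 121.1 in siLOC730101, with a log2 fold change of 0.48 (SE 0.110, adjusted p = 0.0920, edgeR). It was 0.26 (adjusted p = 0.320) without siLOC730101 replicate 2 and 0.67 (adjusted p = 3.49e-11) without replicate 1. NR1H2, the liver X receptor beta, which induces ABCA1 and ABCG1 when bound by oxysterols, had 102.5 and 88.5 in siControl and 104.3 and 121.8 in siLOC730101, or 0.24 on the log2 scale (adjusted p = 0.349, edgeR), and 0.12 to 0.36 with 1 library left out. NR1I2, the xenobiotic receptor that induces ABCB1, had 0 counts in all libraries. Of 13 tested genes for liver X receptor targets and sterol efflux, SREBF2, the activator of cholesterol synthesis, was the only one with an unadjusted p under 0.05, at 0.23 on the log2 scale (adjusted p = 0.268, edgeR), and the list median was -0.02.

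MVP, the major vault protein, had the smallest adjusted p of the lists. Its CPM was 28.7 and 26.0 in siControl and 37.4 and 38.98 in siLOC730101, without overlap of the groups. The log2 fold change was 0.48 (SE 0.109, adjusted p = 0.0865, edgeR). It was the only gene with an unadjusted p under 0.05 among 20 tested genes of drug conjugation and uptake, whose median was 0.10. GSTP1, a glutathione transferase that makes conjugates for ABCC1, had 0 counts in every library.

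In the list of mitochondrial iron and haem partners, 4 of 13 genes tested had an unadjusted p under 0.05, all of them higher, where 6.43% of all genes were, and the list median was 0.13. GLRX5, a carrier of iron-sulphur clusters, had a CPM of 73.1 and 79.2 in siControl and 90.4 and 105.9 in siLOC730101, with a log2 fold change of 0.37 (SE 0.0938, adjusted p = 0.122, edgeR). FDXR, the ferredoxin reductase, stood at 0.27 on the log2 scale (adjusted p = 0.389, edgeR), at 0.11 without siLOC730101 replicate 2 and at 0.42 (adjusted p = 0.0130) without replicate 1. Of 13 peroxisomal partners tested, ACAA1, the thiolase of peroxisomal beta-oxidation, had an unadjusted p under 0.05. Its log2 fold change was 0.24 (adjusted p = 0.291, edgeR), and 0.15 to 0.34 with 1 library left out. That of ABCD3 was -0.22, and neither gene was called. Of 14 ribosome recycling and stress partners tested and 3 channel and bile partners tested, 0 had an unadjusted p under 0.05, with list medians of 0.04 and 0.14. The luminal markers, 12 tested, had 2 genes on each side at this level, and SLC45A3, at -0.24 on the log2 scale, had the smallest p (adjusted p = 0.236, edgeR).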

How the data were processed

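The members, their role classes and the partner lists were chosen with earlier results of these data known. Per the file headers, the authors deposited raw counts per gene, made with featureCounts 2.0.1 on the exons of gencode version 41 (hg38), whereas the methods of the paper name hg19, and name STAR where the submitters' notes name BWA. The command sets no option for pairs or strand, and 66.0% to 70.1% of the counts from 1 to 20 were even, so mates may be counted apart. Counts were filtered with filterByExpr, scaled with TMM and tested across all genes with the quasi-likelihood fit of edgeR 4.0.16 in R 4.3.3, with the group as the only term and Benjamini-Hochberg adjustment over 19349 genes. The SE was derived from the log2 fold change and the F statistic of the edgeR test. Intervals of 95% used this SE and the degrees of freedom of the test. DESeq2 1.42.0 was an alternative. Fitted fold changes of genes with few counts, and so their SE and intervals, depend on the prior count. An exact permutation test of 2 against 2 libraries cannot go under p = 0.333. The chi-square per degree of freedom between replicates was 11.27 for siControl and 14.2 for siLOC730101, so they are separate libraries. Results for 2 members, 1 marker gene and 1 further site, which stayed in the tests, sums and counts, are not reported here. The other members are accounted for, with full values for those with an unadjusted p under 0.05 and the 8 highest, and partner genes by up to 2 of the smallest p a list. TAP1, TAP2, CFTR, NR1I2 and GSTP1 were added after their values were seen, as were other list genes given by counts. Sites were searched in 1 canonical transcript a gene (gencode version 44 lifted to GRCh37). Every count column was used.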

Additional observations from a re-analysis of the deposited data

How the results depend on the processing

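With all libraries kept, 270 of 282 values of 29 tested members kept their direction and their side of the threshold. The direction of 3 members near 0 turned. ABCA3 was -0.030 with upper-quartile factors, -0.037 with library size only, -0.0032 with no filter beyond 1 count, -0.011 with a mean count above 50 and -0.0042 with counts halved. ABCC4 and ABCA2 were -0.026 and -0.019 with upper-quartile factors, -0.032 and -0.026 with library size only, and -0.0067 and -0.00051 with a mean count above 50. The members' median was -0.041 and -0.048 with the first 2 scalings, which moved the median of all genes to -0.033 and -0.039.

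Counts of genes called moved most. With no filter there were 324 higher and 113 lower genes and 4 partner genes, with a mean count above 50 there were 137, 50 and 2, with DESeq2 234, 63 and 3, with the legacy method off 87, 24 and 1, with counts halved 112, 34 and 2, and with library size only 35 lower. With the replicate number as a block there were 485 and 167 and 8 partner genes, and 1 member, ABCC1, was called higher (log2 fold change 0.25, adjusted p = 0.0354, edgeR). The labels do not say what a number shares, and the deviations of libraries with number 1 correlated at 0.0484 over 14245 genes, so the numbers were not taken as pairs. The cause of these differences was not tested.

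Leaving out each library gave 0 to 1 members higher and 0 to 1 lower, 77 to 923 genes higher, 26 to 272 lower, 2 to 15 partner genes, and a members' median from -0.050 to 0.00012. The highest counts came without siLOC730101 replicate 1. In 14 members the direction turned in at least 1 of these fits: ABCA3 ran from -0.043 to 0.051, ABCC4 from -0.14 to 0.17, ABCA2 from -0.051 to 0.082, ABCE1 from -0.081 to 0.0031, ABCB10 from -0.048 to 0.049, ABCF2 from -0.043 to 0.19, ABCD4 from -0.080 to 0.00012, ABCC10 from -0.074 to 0.062, ABCA5 from -0.16 to 0.29, ABCC11 from -0.15 to 0.11, ABCA1 from -0.12 to 0.28, ABCC8 from -0.35 to 0.35, ABCA8 from -0.88 to 0.30 and ABCG8 from -0.77 to 3.25. The direction held but the size moved by over 1.5 times in ABCC5 (-0.22 to -0.017), ABCA4 (-0.58 to -0.046), ABCC2 (1.153 to 2.87), ABCB4 (-1.62 to -0.55), ABCB8 (0.038 to 0.19), ABCF1 (0.031 to 0.099) and ABCF3 (0.028 to 0.15), beside ABCC1 and ABCB6 as given with their values. LOC730101 stayed between -1.67 and -1.44. Where the interval of a member includes 0, these libraries do not tell a change inside it from no change. Intervals that leave out 0 are not adjusted for the number of genes.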
